A study of Rattus norvegicus with 12 samples.

Results

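The core genes of the cytoplasmic dynein, dynactin and kinesin-1 transport motors were followed in the ganglionic eminences of rat embryos. They are 10 of the 14506 genes that a single-gene probe set named on the array. They were chosen by gene name, and each was read by 1 probe set. Expression was measured in 12 embryos at embryonic day 14, in the ventral forebrain region from which the striatum and many cortical interneurons arise. Of these, 6 embryos were homozygous for BACHD, a bacterial artificial chromosome transgene that encodes the whole human huntingtin protein in mutant form (96 CAG repeats), and 6 were wild type. They were the offspring of 3 transgenic dams, and a single array was used for the medial and lateral eminences of each. The labels do not say which embryo came from which dam, nor its sex, so embryos that share a mother could not be treated as related. The whole tissue was measured, so fewer cells of a type and less RNA per cell cannot be told apart.

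Cytoplasmic dynein carries vesicles, organelles and signalling endosomes toward the minus ends of microtubules, which in axons means toward the cell body. Dynactin binds dynein and its cargo and is needed for most of this movement. Kinesin-1 moves cargo the other way, toward the axon tip. Huntingtin binds these motors, directly and through Hap1, and acts as a scaffold between them and vesicles such as those that carry BDNF. Dynein also positions the nuclei of dividing radial glia and of migrating young neurons.

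The comparison asked whether the mutant transgene goes along with altered transcript levels of these motors at this early stage. No motor gene passed an adjusted p of 0.05 in limma, where 0.469% of all named genes did (0.2% higher, 0.269% lower). The differences between homozygous and wild-type embryos lay between -0.043 and 0.087 on the log2 scale. In the values as deposited, Dctn2 of dynactin and Kif5a of kinesin-1 had the smallest p-values, both with the higher mean in homozygous embryos. After centring arrays on their medians, Dync1li2, Dctn1 and Kif5b had the smallest, each with the lower mean. In all, 6 of the 10 genes stood above 0 and 4 below, where 61.4% and 38.6% of all named genes did. Their median difference was 0.016, beside 0.021 for all named genes, and with 1 array left out it ran from -0.0001 (without wild type 6) to 0.028 (without homozygous 2). It was -0.022 with arrays centred on their medians, -0.0012 with quantile normalization and 0.00023 with cyclic loess, so no direction is given. Their median size without sign was 0.037, beside 0.053 for all named genes. The 95% confidence intervals of all 10 lay within 1.2-fold in either direction, and those of 7 within 1.1-fold.

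Promoter sequences are shown for 4 of the motor genes: Dctn2, which had the largest difference, and Dync1h1, Kif5b and Kif5c, the genes of the 2 highest pair correlations over embryos, neither of which passed adjustment. They are from RefSeq, build GRCr8, and run from 250 bases before the start of the gene to 50 after it, 5′ to 3′ along the gene. RefSeq sequences matched 9 of the 10 genes by symbol, all but Kif5a, whose promoter is therefore neither shown nor counted. Capitals mark the CCAAT box (CCAAT), the GC box (GGGCGG), the cyclic AMP response element (TGACGTCA) and the TATA box (TATAAA), searched on both strands, with neighbouring matches allowed to overlap.
Dctn2, chr7:64977216-64977515, plus strand: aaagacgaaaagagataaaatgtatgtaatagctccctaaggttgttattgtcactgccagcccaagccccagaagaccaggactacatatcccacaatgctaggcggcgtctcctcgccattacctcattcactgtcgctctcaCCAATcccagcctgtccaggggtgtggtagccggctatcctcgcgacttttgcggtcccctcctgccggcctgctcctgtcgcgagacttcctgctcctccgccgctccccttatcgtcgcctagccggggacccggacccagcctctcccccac
Dync1h1, chr6:135436228-135436527, plus strand: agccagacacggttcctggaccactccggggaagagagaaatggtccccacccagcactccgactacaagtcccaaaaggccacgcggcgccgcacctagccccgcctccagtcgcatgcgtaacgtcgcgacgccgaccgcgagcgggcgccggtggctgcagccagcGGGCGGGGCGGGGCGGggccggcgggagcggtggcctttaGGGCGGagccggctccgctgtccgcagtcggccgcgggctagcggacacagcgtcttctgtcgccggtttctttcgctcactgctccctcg
Kif5b, chr17:56185136-56185435, plus strand: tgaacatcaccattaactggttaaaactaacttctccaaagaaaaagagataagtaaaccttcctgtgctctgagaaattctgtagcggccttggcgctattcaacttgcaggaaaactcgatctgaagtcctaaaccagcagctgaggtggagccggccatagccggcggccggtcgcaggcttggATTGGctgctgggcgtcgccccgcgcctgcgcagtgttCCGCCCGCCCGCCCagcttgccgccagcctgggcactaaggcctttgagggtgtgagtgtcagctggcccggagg
Kif5c, chr3:54441057-54441356, plus strand: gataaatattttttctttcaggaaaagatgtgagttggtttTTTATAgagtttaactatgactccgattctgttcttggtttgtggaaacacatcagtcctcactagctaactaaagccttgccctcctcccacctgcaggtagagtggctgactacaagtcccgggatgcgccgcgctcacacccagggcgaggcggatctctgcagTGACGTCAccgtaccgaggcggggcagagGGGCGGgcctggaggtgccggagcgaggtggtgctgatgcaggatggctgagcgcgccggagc

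Among these windows, that of Dctn2 held 1 CCAAT box and no GC box, while that of Dync1h1 held 4 GC boxes and no CCAAT box. The Kif5b window held 1 CCAAT box and 3 GC boxes. For the neuronal paralogue Kif5c, the window held 1 GC box, 1 cyclic AMP response element and 1 TATA box. Over the 9 motor gene windows, 7 held a GC box, 3 a CCAAT box, 1 the cyclic AMP response element and 1 a TATA box. Of the 33469 promoters in the RefSeq table, 33.1% held a GC box, 37.5% a CCAAT box, 1.83% the response element and 14.2% a TATA box. That set was not limited to the genes measured here or to genes active in this tissue. Its shares, and its CpG median below, are therefore no like-for-like background for the motor genes. The CpG count was above the median of all promoters, 7, in 8 of the 9 windows. It reached 40 in Dync1h1, 39 in Dync1li1 and 37 in Dync1li2, and was lowest in Dctn1, at 5. These matches describe letters in a window and were not tested as binding sites.

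All 10 genes gave clear signal. Each read higher on every array than 6.79, the 95th percentile of the 53 olfactory receptor genes, which serve as genes not known for activity in this tissue. Array medians were 7.67 to 7.71 over the wild-type embryos and 7.69 to 7.76 over the homozygous, so scaling bears on small differences. Pairs of arrays had r from 0.994 to 0.998 over the probe sets, which are no replicates. Markers of the eminence itself (Dlx1, Dlx5, Gad1, Gad2, Gsx2, Nkx2-1, Lhx6, Isl1 and Ebf1) all read above 10 on every array. Of these 9 markers none passed in limma, with differences from -0.18 ± 0.080 (SE) for Dlx5 to 0.16 ± 0.040 for Nkx2-1. Differences had a median standard error of 0.025 over the motor genes and 0.052 over all named genes.

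The dynein heavy chain Dync1h1 holds the motor domain that hydrolyses ATP and walks on the microtubule. Its log2 intensity ran from 11.41 through a median of 11.56 to 11.71 in wild-type embryos, and from 11.56 through 11.61 to 11.84 in homozygous ones. The groups overlapped widely, with 2 homozygous embryos above every wild-type embryo. The difference was 0.082 ± 0.057 (log2, SE, n = 6 per group), or 1.06-fold with a 95% confidence interval of 0.973 to 1.15 (adjusted p = 0.503 in limma). It was 0.045 without homozygous 6 and 0.049 without wild type 1. Embryos of 1 genotype varied more in Dync1h1 than in most of the other motor genes, with SDs of 0.117 among wild-type and 0.106 among homozygous animals.

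The intermediate chains connect the heavy chain to dynactin and to cargo. Dync1i1 is the form enriched in neurons, and Dync1i2 is found in most cells. Dync1i1 ranged from 7.75 through 8.04 to 8.22 in wild-type and from 8.002 through 8.02 to 8.11 in homozygous embryos. All homozygous values lay inside the wild-type range, and the SD was 0.168 in wild type against 0.045 in homozygous embryos, a contrast seen after the values and not tested. The means differed by 0.016 ± 0.066 (SE, adjusted p = 0.924 in limma). This direction turned with arrays centred on their medians (-0.022), quantile normalization (-0.012), cyclic loess (-0.016) and a covariate for Eif2s3 level (-0.012), and without wild type 3 or wild type 6, so none is given. Dync1i2 stayed in a narrow band, from 11.73 through 11.82 to 11.84 in wild-type and from 11.74 through 11.79 to 11.83 in homozygous embryos. Its difference was -0.013 ± 0.025 (adjusted p = 0.823), with an interval of 0.956- to 1.03-fold.

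The light intermediate chains, Dync1li1 and Dync1li2, bind the activating adaptors that join dynein to its cargo. Dync1li1 ran from 12.60 through 12.65 to 12.71 in wild-type and from 12.66 through 12.68 to 12.73 in homozygous embryos. All 6 homozygous values were above the wild-type median but only 2 above the wild-type maximum. The difference was 0.035 ± 0.022 (SE, adjusted p = 0.457 in limma), and it was -0.0027 with arrays centred on their medians. Its paralogue Dync1li2 ran from 11.43 through 11.47 to 11.52 in wild-type and from 11.41 through 11.43 to 11.45 in homozygous embryos. Here no homozygous embryo reached the wild-type median, and 3 lay below every wild-type embryo. The difference was -0.043 ± 0.022 (adjusted p = 0.371), with an interval of 0.939- to 1.003-fold.

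In dynactin, Dctn1 encodes the large subunit p150Glued, which binds microtubules and the dynein intermediate chain, and Dctn2 encodes dynamitin, of the shoulder that holds the complex together. Dctn1 ran from 10.57 through 10.63 to 10.69 in wild-type and from 10.57 through 10.59 to 10.62 in homozygous embryos. No homozygous value exceeded the wild-type median, and the difference was -0.039 ± 0.025 (SE, adjusted p = 0.471 in limma). Dctn2 read from 10.85 through 10.90 to 10.95 in wild-type and from 10.94 through 10.99 to 11.04 in homozygous embryos. Of the homozygous embryos, 5 lay above every wild-type embryo and the other, homozygous 6, overlapped the top of the wild-type range. The difference was 0.087 ± 0.025, or 1.06-fold with an interval of 1.02 to 1.103. Dctn2 did not pass (adjusted p = 0.145 in limma). Its unadjusted p was 0.00415. In 23 other settings its adjusted p ran from 0.0412 to 0.474, and it passed in 2, with array weights (0.0497) and without wild type 1 and 2 together (0.0412).

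**Figure D1:**
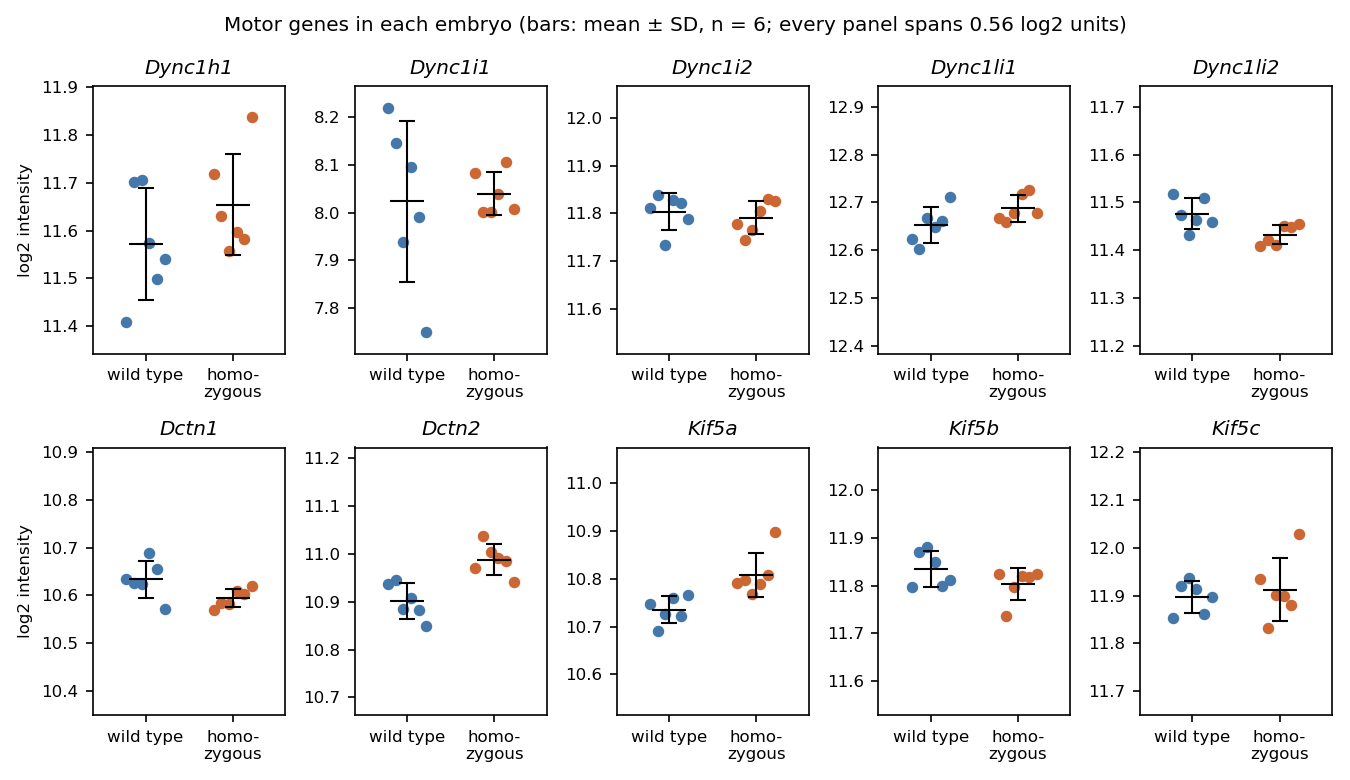
Log2 intensity of the 10 motor genes (vertical axis) in 6 wild-type (blue) and 6 homozygous embryos (orange); points are single embryos in the order of their replicate numbers, which carry no ranking, and bars show mean ± SD. Each panel has its own axis of equal span, so heights compare within a panel only: the Kif5a groups just separate, the Dctn2 groups overlap by 1 homozygous embryo, and wild-type embryos spread widely in Dync1i1.

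Kinesin-1 has 3 heavy chains. Kif5b is made in most cells, and Kif5a and Kif5c are enriched in neurons. Kif5a ran from 10.69 through 10.74 to 10.77 in wild-type and from 10.77 through 10.79 to 10.90 in homozygous embryos. It was the 1 motor gene whose groups did not overlap, as in 2.2% of all named genes, and the separation was thin: the highest wild-type value was 10.766 and the lowest homozygous value 10.768. The difference was 0.073 ± 0.027 (SE), or 1.05-fold with an interval of 1.01 to 1.09, with an unadjusted p of 0.0167 and an adjusted p of 0.232 in limma. Without homozygous 6, the highest embryo, it was 0.055 ± 0.024 (adjusted p = 0.321). With arrays centred on their medians it was 0.035 ± 0.029 (adjusted p = 0.630).

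Kif5b ran from 11.80 through 11.83 to 11.88 in wild-type and from 11.74 through 11.82 to 11.82 in homozygous embryos. No homozygous embryo was above the wild-type median, and the difference was -0.032 ± 0.024 (SE, adjusted p = 0.543 in limma). Without homozygous 2, the lowest embryo, the difference was -0.018 ± 0.023 (adjusted p = 0.740). Kif5c ran from 11.85 through 11.91 to 11.94 in wild-type and from 11.83 through 11.90 to 12.03 in homozygous embryos. The homozygous embryos enclosed the wild-type range on both sides. The difference of 0.015 ± 0.030 (adjusted p = 0.827) turned to -0.022 with arrays centred on their medians and to -0.0079 without homozygous 6, so no direction is given.

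In the values as deposited, 2 of the 10 motor genes, Dctn2 and Kif5a, had an unadjusted p under 0.05, where 15.1% of all named genes did. In Dctn2, Dync1li1 and Kif5a all 6 homozygous embryos were above the wild-type median. In Dync1li2, Dctn1 and Kif5b none were. These splits hold for the values as deposited, and after centring on array medians the difference of Dync1li1 was -0.0027. How many of all named genes split this way was not counted, so the splits are not read as particular to the motor genes.

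**Figure D2:**
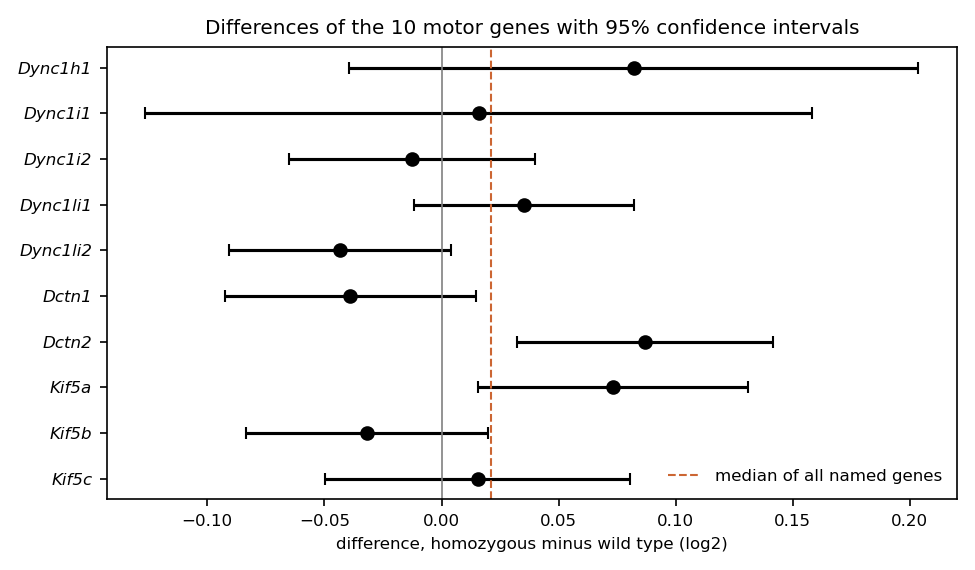
Difference between homozygous and wild-type embryos on the log2 scale (horizontal axis) for each motor gene, with 95% confidence intervals from limma (n = 6 per group); the dashed line marks the median of all named genes, 0.021. With the values as deposited, the intervals of Dctn2 and Kif5a lie above 0 before adjustment for the number of probe sets. The others include 0.

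Scaling of the arrays moved these small values. The homozygous arrays had a mean median 0.038 above the wild-type arrays, and centring every array on its median lowered each difference by that amount. The count of motor genes above 0 was 6 in the values as deposited, 3 after centring, 5 after quantile normalization and 5 after cyclic loess. Across these 4 scalings Dync1h1, Dctn2 and Kif5a stayed above 0, and Dync1i2, Dync1li2, Dctn1 and Kif5b stayed below. After centring, Dctn2 stood at 0.049 and Kif5a at 0.035 (unadjusted p = 0.115 and 0.251 in limma). Dync1li2 then stood at -0.081, Dctn1 at -0.077 and Kif5b at -0.070 (unadjusted p = 0.00517, 0.0132 and 0.0217), and none passed adjustment. With quantile normalization and cyclic loess, Dctn2, Kif5a and Dync1li2 all had an unadjusted p under 0.05.

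**Figure D3:**
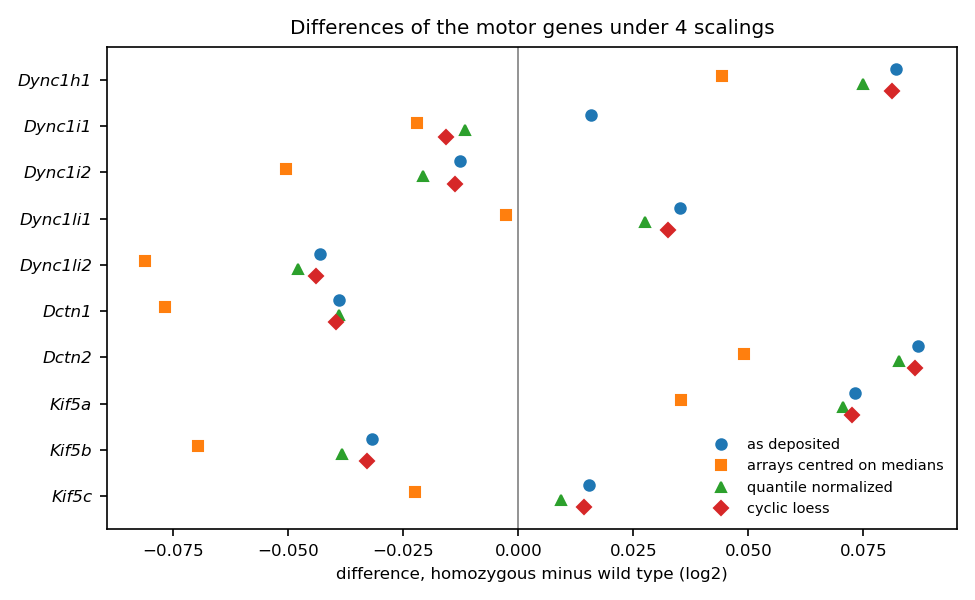
Difference between homozygous and wild-type embryos (log2, horizontal axis) for each motor gene with the values as deposited (circles), arrays centred on their medians (squares), quantile normalization (triangles) and cyclic loess (diamonds). Centring shifts every gene to the left by 0.038 and carries Dync1i1, Dync1li1 and Kif5c across 0, while Dync1i1 is below 0 under all 3 alternatives.

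Among the measured genes, Kif5a and Dctn2 are direct neighbours on chromosome 7 in RefSeq GRCr8, with 2998 bases between them. Their read-outs came from separate probe sets, 10902970 and 10895844. Of the 5 measured genes on either side, a window set after the values were seen, 8 of 10 stood above 0 (7 after centring), where 61.4% of all named genes did, and none passed in limma. Their median difference was 0.090, and 0.053 after centring, 0.037 with quantile normalization and 0.038 with cyclic loess. Of the 10, Slc26a10 (0.089) and Inhbe (0.092) read under 6.79, the level of the olfactory receptors. Both count among the 8 above 0, and the median of 0.090 lies between them. At an unadjusted p under 0.05 there were 2, beside 15.1% of all named genes: Ddit3, a transcription factor of the unfolded protein response, at 0.14 ± 0.043 (SE), and Os9, of endoplasmic reticulum quality control, at 0.12 ± 0.044. Within genotypes, the correlation between the deviations of Kif5a and Dctn2 from the genotype mean was r = -0.58 over 12 embryos (rho = -0.46, permutation p = 0.0581 and 0.147, adjusted p = 0.290 and 0.664), at -0.50 in wild-type and -0.68 in homozygous embryos, and -0.58 without the 2 farthest from the median of Dctn2.

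Variation between embryos was then compared among the motor genes, as deviations from the genotype mean. The 45 pairs had a median r of 0.088, with 25 above 0 and 20 below, and none passed after adjustment over the pairs (lowest adjusted permutation p = 0.0612). The highest pair was Dync1h1 with Kif5c, at r = 0.80 and rho = 0.81 (permutation p = 0.00136 and 0.00346, adjusted p = 0.0612 and 0.0778). It was 0.93 in wild-type and 0.82 in homozygous embryos, and 0.61 without the 2 embryos farthest from the median of Dync1h1. Kif5b with Kif5c followed at r = 0.72 and rho = 0.85 (permutation p = 0.0135 and 0.00221, adjusted p = 0.266 and 0.0778), with 0.94 in wild-type and 0.68 in homozygous embryos and 0.51 without the 2 farthest. Next were Dync1i2 with Dync1li2 at r = 0.69 and rho = 0.57 (permutation p = 0.0177 and 0.0643, adjusted p = 0.266 and 0.362; 0.63 in wild-type and 0.84 in homozygous embryos, 0.53 without the 2 farthest). Dync1i1 with Dctn2 had r = 0.65 and rho = 0.42 (permutation p = 0.0308 and 0.213, adjusted p = 0.274 and 0.664), but 0.95 in wild-type and -0.27 in homozygous embryos, and 0.34 without the 2 farthest. Dync1h1 with Kif5b stood at r = 0.65 and rho = 0.71 (permutation p = 0.0365 and 0.0203, adjusted p = 0.274 and 0.228), at 0.55 without the 2 farthest. In this pair the within-genotype values were 0.94 in wild-type and 0.29 in homozygous embryos. The lowest pair was Dync1li1 with Dctn2, at r = -0.67 and rho = -0.67 (permutation p = 0.0266 and 0.0292, adjusted p = 0.274 and 0.240), at -0.98 in wild-type but -0.19 in homozygous embryos, and -0.58 without the 2 farthest. Arrays share their scaling across genes, and after centring on array medians the median r of the pairs was 0.31, beside 0.031 with quantile normalization and 0.053 with cyclic loess.

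**Figure D4:**
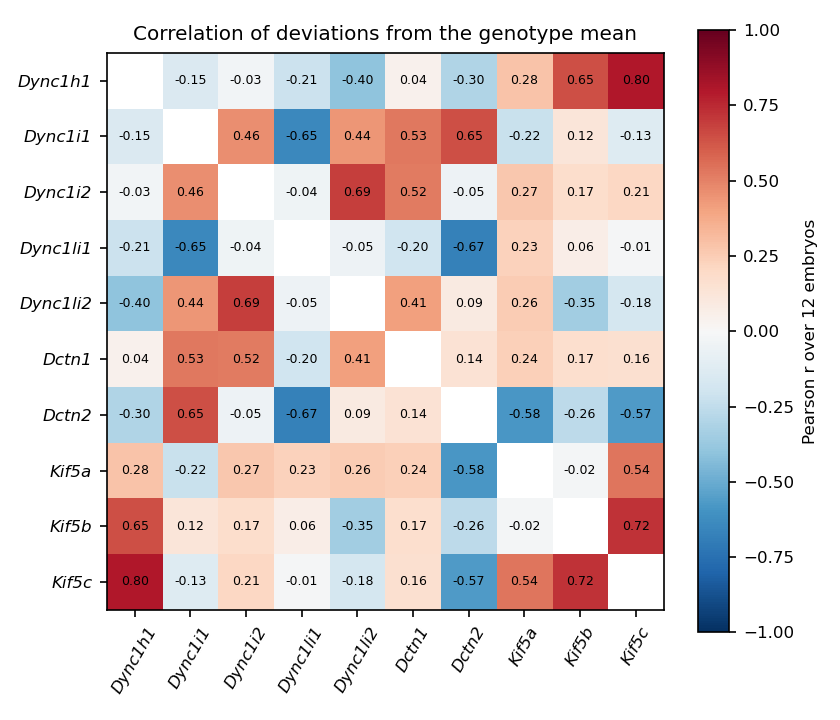
Pearson r between deviations from the genotype mean for each pair of motor genes over 12 embryos (red above 0, blue below). The highest are Dync1h1 with Kif5c (0.80), Kif5b with Kif5c (0.72) and Dync1i2 with Dync1li2 (0.69), and the lowest Dync1li1 with Dctn2 (-0.67); no pair passed after adjustment over the 45 pairs.

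Of 14505 other genes, those whose deviations were most like those of Dctn2 over the 12 embryos were Rbm38 (r = 0.95, rho = 0.94), Klf3 (r = 0.94, rho = 0.92) and Nit2 (r = 0.94, rho = 0.90). Without the 2 embryos farthest from the median these were 0.93, 0.92 and 0.94. They are the extremes of a search over all genes and carry no test, and the genotype differences were 0.048 ± 0.043 (SE) for Rbm38, -0.038 ± 0.079 for Klf3 and 0.077 ± 0.059 for Nit2.

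Beyond the core genes, 77 other measured genes of the motor pathway were followed in 8 lists. Htt, the rat gene for huntingtin, was the 1 gene that passed in limma, and 76 did not. It was higher in homozygous embryos by 0.30 ± 0.056 (SE, adjusted p = 0.0408), the transgene being a human huntingtin. With 1 array left out its adjusted p ran from 0.0338 to 0.0864, and it passed in 1 of 12 cases, without wild type 3. Htt also missed the threshold with arrays centred on their medians (adjusted p = 0.0555), no intensity trend (0.0890) and the replicate number as a block (0.130). It missed it too with the Eif2s3 covariate (0.0505) and the covariate of dim minus bright probe sets (0.0914). Whether its probes also bind the human transcript was not analysed here. Hap1, which links huntingtin to dynactin and kinesin, stood at 0.18 ± 0.041 (adjusted p = 0.0702), 9.78 to 10.05 over the wild-type embryos and 10.05 to 10.15 over the homozygous. Over the 77 genes 51 were above 0, or 66.2%, where 61.4% of all named genes were. Those at an unadjusted p under 0.05 were 11 higher and 3 lower, beside 9.18% higher and 5.93% lower among all named genes. With arrays centred on their medians 30 of the 77 stood above 0, and the median of all named genes was then -0.017. The count was 46 with quantile normalization and 44 with cyclic loess.

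Among the other subunits of dynactin, 7 of 10 stood above 0, beside 61.4% of all named genes, with a median of 0.038. The count was 5 after centring and 7 with quantile normalization and with cyclic loess, and none passed in limma. Dctn5, of the pointed-end complex, stood at 0.077 ± 0.026 (SE, adjusted p = 0.197) and Dctn3, a partner of dynamitin in the shoulder, at 0.13 ± 0.062 (0.326). All 6 homozygous embryos were above the wild-type median for both. The 6 dynein light chains, which bind the intermediate chains, lay mostly on the other side. Of them 5 were below 0, beside 38.6% of all named genes, with a median of -0.055 and none past the threshold. The remaining one, Dynlrb2, read 5.10 and 5.13, under the olfactory receptor level, and with quantile normalization and cyclic loess all 6 lay below 0. Dynll1 stood at -0.060 ± 0.027 (0.309) and Dynlrb1 at -0.070 ± 0.035 (0.358). Without wild type 1 and 2 together, Dctn3 passed at 0.23 ± 0.036 (adjusted p = 0.0105) and Dynll2 at -0.19 ± 0.035 (0.0227).

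All 4 kinesin light chains, which bind cargo for Kif5 heavy chains, stood above 0 with a median of 0.067, and none passed in limma. The count above 0 was 3 after centring and 4 with quantile normalization and with cyclic loess, beside 61.4% of all named genes as deposited. Klc3 read 0.13 ± 0.062 (SE, adjusted p = 0.328), and Klc1, the light chain enriched in neurons, 0.058 ± 0.030 (0.372). Klc1 ran from 11.61 through 11.70 to 11.76 in wild-type and from 11.73 through 11.75 to 11.79 in homozygous embryos, which overlapped. Of 14 dynein regulators and adaptors, 11 were above 0 with a median of 0.042 and none passed. Their count was 8 after centring and 11 with quantile normalization and with cyclic loess. Nudc, which acts with Lis1 in nuclear migration, stood at 0.15 ± 0.055 (0.232) and Nde1, which also binds Lis1, at 0.085 ± 0.037 (0.307). Pafah1b1, the gene for Lis1 itself, was at -0.048 ± 0.038 (0.562).

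None of the 13 other transport kinesins passed in limma. Their median of 0.013 became -0.025 with centring, -0.0048 with quantile normalization and -0.0039 with cyclic loess. Examples were Kif3b of kinesin-2 at 0.086 ± 0.040 (SE, adjusted p = 0.330) and its relative Kif3c at -0.049 ± 0.032 (0.471). The 4 measured genes of dynein-2, the ciliary form, had a median of -0.012 and none past the threshold, with Dynlt2b at -0.089 ± 0.051 (0.423) and the heavy chain Dync2h1 at 0.011 ± 0.048 (0.931). As deposited 3 of the 4 were below 0, beside 38.6% of all named genes. All 4 were below 0 after centring, quantile normalization and cyclic loess, with medians of -0.050, -0.028 and -0.033. The medians of all named genes were then -0.017, -0.0025 and -0.0037. Of 10 mitotic kinesins, which work in spindles, 8 were above 0, beside 61.4% of all named genes, and none passed. Their count was 5 after centring and 8 with quantile normalization and with cyclic loess. Kif15 stood at 0.10 ± 0.033 (0.182) and Kif22 at 0.090 ± 0.039 (0.297).

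**Figure D5:**
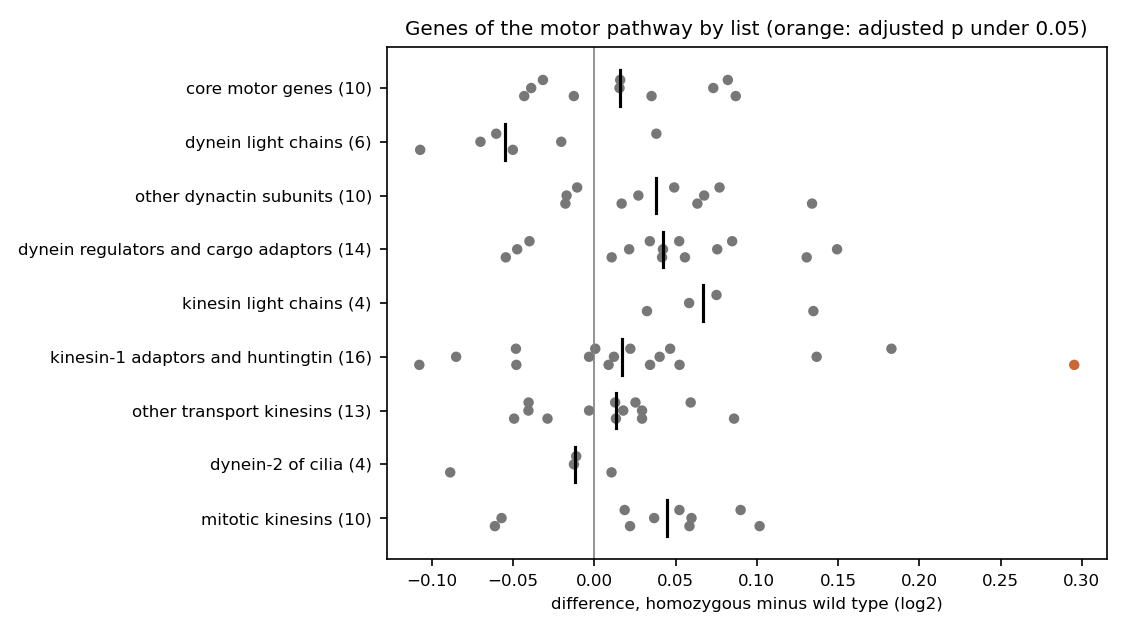
Difference between homozygous and wild-type embryos (log2, horizontal axis) for every measured gene of the motor pathway by list, with the number of genes in brackets; points are genes, vertical bars list medians, and orange marks an adjusted p under 0.05 in limma. Htt alone is orange, at 0.30. The kinesin light chains all lie above 0, also with quantile normalization and cyclic loess, and 3 of 4 do after centring. Of the dynein light chains 5 of 6 lie below, the other being under the olfactory receptor level.

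Kif5a, Kif5c and Dync1i1 are enriched in neurons, so the neuron markers are given beside them. Of 14 markers of postmitotic neurons, 11 stood below 0, where 38.6% of all named genes did, with a median of -0.034. At an unadjusted p under 0.05 in limma, 1 was higher and 3 lower, beside 9.18% and 5.93% of all named genes. The higher one was Map2 (0.094 ± 0.026), and the lower ones were Nefl, Nefm (-0.21 ± 0.045) and Gap43 (-0.19 ± 0.062). Nefl fell by 0.42 (SE 0.065, adjusted p = 0.0273 in limma) and 13 did not pass. With 1 array left out the adjusted p of Nefl ran from 0.0146 to 0.0791, passing in 5 of 12 cases. It was 0.0596 with no intensity trend, 0.0662 with the covariate of dim minus bright probe sets and 0.0717 with the replicate number as a block. At the other end of the list stood Elavl3 at 0.12 ± 0.081. The mean level of the list ran 11.55 to 11.68 over the wild-type embryos and 11.49 to 11.61 over the homozygous. Of 10 radial glia markers, 6 were above 0 and none passed, from Fabp7 at -0.41 ± 0.128 to Hes5 at 0.15 ± 0.042. The count above 0 was 3 after centring, 6 with quantile normalization and 5 with cyclic loess. At an unadjusted p under 0.05 in limma, 1 was higher and 3 lower. Their mean level ran from 10.93 to 11.05 over the wild-type embryos and from 10.91 to 10.97 over the homozygous. All 6 pallial neuron markers were below 0, from Neurod6 at -0.36 ± 0.105 to Slc17a6 at -0.0097 ± 0.049, and none passed. At an unadjusted p under 0.05 in limma 4 of the 6 were lower, beside 5.93% of all named genes. The mean level of these 6 ran 9.21 to 9.72 over the wild-type embryos and 9.23 to 9.34 over the homozygous. The part of these cell types in the values of the motor genes was not tested.

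Markers of other cells the tissue could hold had none past the threshold in limma. At an unadjusted p under 0.05, 2 of 7 endothelial genes were higher, beside 9.18% of all named genes. Of 5 erythroid genes 2 were lower, beside 5.93%. Among choroid plexus genes 1 was higher, Ttr, which read under 6.79, and no microglial or mesenchymal gene had such a p. The nearest to the threshold was Cdh5 (adjusted p = 0.0641). Endothelial genes had a mean level 8.32 to 8.46 over the wild-type embryos and 8.38 to 8.43 over the homozygous (7 genes, Tek lowest at -0.088 and Cdh5 highest at 0.15), and microglial genes from 7.41 to 7.63 and from 7.42 to 7.57 (8 genes, Tyrobp lowest at -0.064; Itgam and Ptprc lay under 6.79). Erythroid genes read from 9.88 to 10.59 and from 9.74 to 9.93 (5 genes, Hbb-b1 -0.64 to Hbe1 -0.014). All 5 were below 0 (4 after quantile normalization), beside 38.6% of all named genes as deposited. Choroid plexus genes read from 6.33 to 6.48 and from 6.32 to 6.62 (5 genes). Of these, Ttr, Folr1 and Clic6 had both group means under 6.79 and Kl 1 of them, so only Aqp1, at 0.043 ± 0.071, gives a difference. Genes of meninges and mesenchyme read from 6.87 to 6.997 and from 6.92 to 7.04 (6 genes, Col1a1 highest at 0.11; Dcn and Lum lay under 6.79).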

How the data were processed

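Affymetrix rat Gene ST arrays measured eminence RNA of 12 embryos. Partek 6.4 and RMA are the tools in the submitters' processing notes; the settings used are not stated there. Each probe set has 1 deposited log2 intensity per array, a scale read from the values. Because RMA evens out arrays, a change in all genes at once may not show, and short probes compress differences. For arrays, their number limits the precision.

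The platform annotation gave 1 gene for 15310 of 29214 probe sets, several for 323 and none for 13581. Of the 15310, 15279 matched RefSeq GRCr8 by Entrez number. Each gene was read by its probe set with the highest mean. Groups came from the labels. All probe sets were fitted with limma 3.58.1 in R 4.3.3 (lmFit, eBayes with an intensity trend), 2-sided, on genotype alone, with Benjamini-Hochberg adjustment over all of them at 0.05. The fit was also run on simulated data with independent noise per probe set and changes larger than those of the motor genes. That run does not bear on differences as small as theirs or on shared array scaling. Differences are homozygous minus wild type. Pair correlations used 100000 permutations within genotypes (Python 3.11.15). The deviations of same-numbered embryos of the 2 genotypes had r from -0.082 to 0.26 over probe sets, highest for number 3. Differently numbered embryos were not compared, so whether the numbers mark a pairing was not settled. The main fit did not use them.

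The members and lists were chosen with earlier results of these data known. Genes named outside the core are Htt, Hap1, the 2 with the smallest p in each pathway list and any that passed, the extremes of each marker list where they read above the olfactory receptor level, and the 3 most like the core gene with the smallest p. Dynll2, Pafah1b1, Map2, Nefm, Gap43 and the neighbours were chosen after their values were seen. Other settings were 3 scalings, the replicate number as a block, only the brighter probe sets, no intensity trend, array weights, 2 covariates, the mean of a gene's probe sets, each array left out, and wild type 1 and 2 left out together. The scalings of the pair correlations, lists and neighbours were added after seeing the data.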

Additional observations from a re-analysis of the deposited data

Results flagged for a closer look

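In 2 of 20 groups of 6 embryos, over the 10 motor genes, a single embryo stood far from the other 5. Homozygous 6 read 10.90 in Kif5a, where the next embryo read 10.81. Homozygous 2 read 11.74 in Kif5b, where the next read 11.80. With the other genes named from the pathway lists, 52 groups were looked at and these were the only 2. Chance gives such a gap in about 1 of 20 groups.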

How the results depend on the processing

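No motor gene passed in 21 of 23 other settings. With array weights 1 passed and without wild type 1 and 2 together 1 passed, Dctn2 each time. Their median difference of 0.016 became -0.022 with arrays centred on their medians (all named genes -0.017). Dync1i1 turned to -0.022 with centring, -0.012 with quantile normalization, -0.016 with cyclic loess and -0.012 with the level of Eif2s3, and ran from -0.039 to 0.055 with 1 array left out. Centring also turned Dync1li1 to -0.0027 and Kif5c to -0.022, and with 1 array left out Kif5c ran from -0.0079 to 0.032. In the other pathway lists, where 1 gene passed, the count was 0 with centring, without an intensity trend, with the level of Eif2s3 and with the dim and bright covariate, 2 with the filter on dim probe sets (Htt and Hap1), 3 without wild type 1 and 2 together, and 0 to 1 when single arrays were omitted (1 without wild type 3). With the replicate number as a block, 0 motor genes and 0 other pathway genes passed (Htt adjusted p = 0.130), and Nefl stood at 0.0717. The median r of the pairs ran from -0.0085 to 0.15 with 1 array left out and was 0.31 after centring, 0.031 with quantile normalization and 0.053 with cyclic loess, settings chosen after seeing the data. With 12 arrays, the 95% intervals of the motor genes spanned -0.13 to 0.20 in all.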
